A study of Mus musculus with 10 samples.

Results

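The 8 genes described here, GATA3, FOXA1, TFAP2A, TFAP2C, SPDEF, ELF3, EHF and KLF5, encode transcription factors of the luminal cell lineage of the breast. They were chosen by name, and their probe sets were those annotated with exactly 1 of the 8 symbols. The array held 36 such probe sets among 61359, and the 8 genes were tested among 17169. Each gene was read from the probe set with its highest mean over the 10 arrays, and all 8 passed the filter on low values. Of the 36 probe sets 33 passed, and the 3 below it were 1 of TFAP2A and 2 of EHF.

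Luminal cells line the ducts and lobules of the mammary gland, and most estrogen receptor positive breast cancers resemble them. GATA3, a zinc finger factor, and FOXA1, a forkhead factor that opens closed chromatin, act with the estrogen receptor at many of its binding sites. The AP-2 factors TFAP2A and TFAP2C bind many of the same enhancers, and TFAP2C is known to support ESR1 transcription. SPDEF, ELF3 and EHF belong to the epithelial ETS factors, and KLF5 is a zinc finger factor of dividing epithelial progenitors.

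The samples were human breast cancer cells grown in female nu/nu mice aged 20 weeks, a strain that lacks a working thymus but keeps other immune cells. All mice had received an estrogen pellet. The pellet stayed in the E group and was taken out for 1 week in the EWD group (estrogen withdrawal). The labels give neither the cell line nor a dose, and every group carried the same host genotype. Tumor cells were laser captured from frozen sections of metastatic lymph nodes and primary mammary gland tumors, and PCR was used to amplify their RNA. E lymph nodes came from mice 6, 11 and 14, EWD lymph nodes from mice 9, 10 and 19, E primary tumors from mice 11 and 14, and EWD primary tumors from mice 10 and 19. Values per mouse are given below in this order. The 10 arrays thus came from 6 mice, 4 of which gave both sites.

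The values are log2 signals, so a difference of 1 is a doubling of the signal. The 2 E primary tumor arrays had a narrower range than the rest, with 99th percentiles of 9.44 and 10.04 against 11.39 to 11.67 on the other 8 arrays. The calls are therefore given as deposited and after quantile normalization, which forces all arrays to 1 distribution. The 18 hybridization control probe sets, which read material added at hybridization, averaged 12.04 to 12.47 on 4 arrays (E lymph node 11, EWD lymph node 19 and both EWD primary tumors) and 9.47 to 10.59 on the other 6. In the primary tumors this split coincides with the pellet state, so the 2 cannot be told apart there. The 7 tumor epithelial markers had means of 8.91 to 9.89 in E lymph nodes, 10.29 to 10.44 in EWD lymph nodes, 7.82 to 7.94 in E primary tumors and 9.99 to 10.10 in EWD primary tumors. The 11 leukocyte markers averaged 2.70 to 3.28 over all arrays, with at least 8 of them under a log2 value of 4 on every array of a group. The 9 fibroblast markers averaged 3.16 to 3.67. The arrays read human genes and the hosts were mice, so these 2 lists do not measure how many host cells were captured. The 5 basal or myoepithelial markers averaged 4.49 to 5.14 in E primary tumors, 3.38 to 4.42 in EWD primary tumors, 3.82 to 4.90 in E lymph nodes and 3.35 to 4.04 in EWD lymph nodes. Among them the basal keratin KRT5 read 6.32 and 7.72 in E primary tumors and 3.06 and 5.64 in EWD primary tumors (difference 2.68, adjusted p = 0.163). In lymph nodes KRT5 read 3.18, 6.22 and 3.44 with E and 2.92, 3.02 and 3.65 after withdrawal. KRT14 stayed at 2.34 to 3.49 and CNN1 at 1.90 to 2.73 on all arrays. In bulk captured cells, fewer cells of a type and less RNA per cell cannot be told apart.

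**Figure D1:**
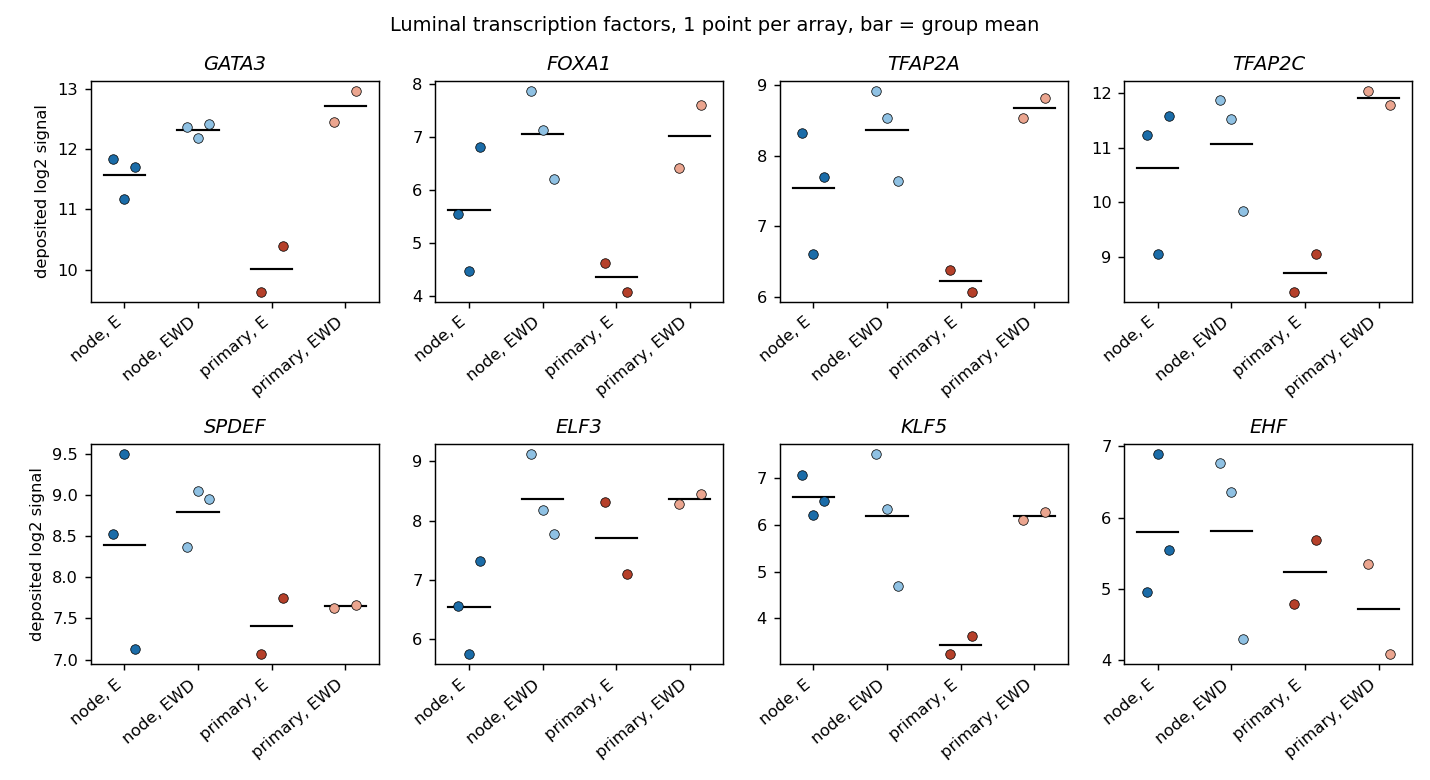
Deposited log2 signal of the 8 factors (1 probe set each), with 1 point per array, a bar at each group mean and a separate vertical axis per panel. GATA3, FOXA1, TFAP2A, TFAP2C and KLF5 lie lower in both E primary tumors than in both EWD primary tumors.

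GATA3, which specifies and maintains luminal cells, was lower with estrogen at both sites as deposited. Its values were 11.84, 11.17 and 11.71 in E lymph nodes and 12.37, 12.19 and 12.41 in EWD lymph nodes. In the primary tumors they were 9.64 and 10.40 with E and 12.46 and 12.96 after withdrawal. The E arrays lay below the EWD arrays at each site without overlap, and the order of the group means was EWD primary tumor, EWD lymph node, E lymph node and E primary tumor. In the primary tumors GATA3 fell by 2.70 ± 0.35 (SE) with estrogen (limma adjusted p = 0.0105, adjusted over all genes tested). In the lymph nodes the difference was −0.75 ± 0.28 and was not past the threshold (adjusted p = 0.764). Between the sites, GATA3 was 1.56 ± 0.32 higher in E lymph nodes than in E primary tumors (adjusted p = 0.0216), and the EWD sites, neighbours in that order, differed by −0.39 (adjusted p = 0.785).

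Quantile normalization changed the size of the GATA3 result in the primary tumors and the sign of the site result. The primary tumor difference became −0.89 ± 0.27 (adjusted p = 0.119), close to the lymph node difference of −0.69 ± 0.22 (adjusted p = 0.586). The site difference with estrogen became −0.22 (adjusted p = 0.797). Within mice, GATA3 in the lymph node minus the primary tumor was 1.53 and 1.31 in the E mice 11 and 14 and −0.27 and −0.55 in the EWD mice 10 and 19 as deposited. After quantile normalization it was below 0 in all 4 mice, at −0.37, −0.28, −0.30 and −0.53. Within each side of the hybridization control split, the lymph node pellet difference was −0.50 (2 against 2 arrays) and −1.25 (1 against 1). The primary tumor call was lost without E primary tumor 11 (adjusted p = 0.0696) or EWD primary tumor 19 (adjusted p = 0.0734). The site call was lost without E lymph node 6 (adjusted p = 0.0897) or E primary tumor 11 (adjusted p = 0.125), with probe sets averaged (adjusted p = 0.106) or chosen by greatest variance (adjusted p = 0.361), and with the compared groups fitted alone (adjusted p = 0.13).

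The second GATA3 probe set gave the same direction of the pellet difference in both sites. It read 10.38, 8.97 and 10.59 in E lymph nodes against 11.89, 11.38 and 11.51 in EWD lymph nodes, and 8.89 and 9.41 against 11.76 and 12.07 in the primary tumors. Fitted with all 45974 probe sets tested, it fell by 2.77 with estrogen in the primary tumors (adjusted p = 0.0285), where 2.75% of all probe sets were called lower. After quantile normalization that difference was −0.98 and no longer called (adjusted p = 0.202, 0.215% of all probe sets called lower). Its lymph node difference of −1.61 was not past the threshold (adjusted p = 0.619).

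FOXA1, the forkhead partner of the estrogen receptor, had negative pellet differences at both sites, neither past the threshold alone. It measured 5.56, 4.48 and 6.82 in E lymph nodes and 7.87, 7.13 and 6.21 in EWD lymph nodes. The primary tumors had 4.62 and 4.08 with E and 6.42 and 7.61 after withdrawal. The lymph node groups overlapped, through E lymph node 14 and EWD lymph node 19, and the primary tumor groups did not. The difference with estrogen was −1.45 ± 0.63 in lymph nodes (adjusted p = 0.854) and −2.65 ± 0.78 in primary tumors (adjusted p = 0.0715). After quantile normalization the values were −1.32 (adjusted p = 0.702) and −2.32 (adjusted p = 0.0954), so that the FOXA1 difference changed less with the scale than that of GATA3. The group means of the EWD sites were 7.07 ± 0.83 (SD, n = 3) in lymph nodes and 7.01 ± 0.84 (SD, n = 2) in primary tumors. The second FOXA1 probe set, at a mean of 3.82 over the arrays, had differences of −0.18 in lymph nodes and −0.68 in primary tumors, neither past the threshold.

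TFAP2A, an AP-2 factor, fell by 2.45 ± 0.56 with estrogen in the primary tumors as deposited (adjusted p = 0.0356). It stood at 6.39 and 6.08 in E primary tumors and 8.53 and 8.82 in EWD primary tumors, which did not overlap. The lymph nodes had 8.32, 6.61 and 7.70 with E and 8.91, 8.53 and 7.64 after withdrawal, overlapping groups with a difference of −0.82 ± 0.46 (adjusted p = 0.915). After quantile normalization the primary tumor difference was −1.60 ± 0.41 (adjusted p = 0.0872) and that of the lymph nodes −0.66. The primary tumor call was also lost when probe sets were averaged (−0.50, adjusted p = 0.256), and without EWD lymph node 10, E primary tumor 11 or 14, or EWD primary tumor 10 or 19 (adjusted p = 0.0669 to 0.204). The second TFAP2A probe set read 2.99 to 4.03 over the arrays and had a primary tumor difference of 0.54 of the opposite sign (adjusted p = 0.32).

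TFAP2C, the other AP-2 factor, had the most negative primary tumor difference of the 8, at −3.18 ± 0.88, which was not past the threshold (adjusted p = 0.0618). It read 8.37 and 9.06 in E primary tumors and 12.03 and 11.77 in EWD primary tumors. Quantile normalization reduced the difference to −1.57 (adjusted p = 0.245). In lymph nodes the E mice had 11.22, 9.06 and 11.58 and the EWD mice 11.86, 11.52 and 9.84, with a difference of −0.45 (adjusted p = 0.957). The low E array was mouse 11 and the low EWD array mouse 19, the lymph node arrays with high hybridization controls. Within the sides of that split the difference was −0.29 (2 against 2 arrays) and −0.77 (1 against 1). The second TFAP2C probe set read 3.17 and 3.28 in E primary tumors and 2.26 to 2.50 on the other arrays, and rose by 0.85 with estrogen in the primary tumors (adjusted p = 0.048 over the probe sets), where 0.531% of all probe sets were called higher. After quantile normalization its difference was again 0.85 but not called (adjusted p = 0.0779, 0.389% of all probe sets called higher).

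ELF3, an epithelial ETS factor, had the most negative lymph node pellet difference of the 8, and its probe sets did not agree in the primary tumors. It measured 6.57, 5.75 and 7.31 in E lymph nodes and 9.13, 8.19 and 7.78 in EWD lymph nodes. Every E array lay below every EWD array, yet the difference of −1.82 ± 0.49 was not past the threshold (adjusted p = 0.504, and 0.462 after quantile normalization with a difference of −1.63). Within the sides of the hybridization control split it was −1.72 (2 against 2 arrays) and −2.03 (1 against 1). In the primary tumors ELF3 had 8.31 and 7.10 with E and 8.28 and 8.44 after withdrawal, with a difference of −0.64 as deposited and 0.63 after quantile normalization. All 3 ELF3 probe sets had negative differences at both sites as deposited, from −1.93 to −1.70 in lymph nodes and from −2.76 to −0.64 in primary tumors. On the 2 probe sets of lower mean the primary tumor difference was the more negative, at −2.76 and −2.26 against −1.70 and −1.93 in lymph nodes. The probe set with the lowest mean of the 3 was called lower with estrogen in the average over both sites, by 2.10 as deposited (adjusted p = 0.0453) and 1.92 after quantile normalization (adjusted p = 0.0489). Of all probe sets 2.53% and 0.69% were called lower there.

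KLF5, the Krüppel-like factor, was low in the E primary tumors alone among the 4 groups. Its values were 3.23 and 3.63 there against 6.09 and 6.27 in EWD primary tumors, 7.07, 6.21 and 6.51 in E lymph nodes and 7.52, 6.33 and 4.70 in EWD lymph nodes. The lowest array elsewhere, EWD lymph node 19, lay above both E primary tumors. KLF5 was 3.18 ± 0.69 higher in E lymph nodes than in E primary tumors (adjusted p = 0.0261), and 2.98 and 2.88 higher within mice 11 and 14. Its pellet difference in the primary tumors was −2.74 ± 0.74 (adjusted p = 0.0594), and in the lymph nodes it was 0.41 ± 0.61. Quantile normalization left the sizes nearly as they were, at 3.07 ± 0.57 for the site (adjusted p = 0.0675) and −2.62 ± 0.61 for the pellet in primary tumors (adjusted p = 0.0716), but neither then passed. The site call was also lost without E lymph node 6, EWD lymph node 10 or any 1 of the 4 primary tumors (adjusted p = 0.0552 to 0.141), and with the compared groups fitted alone (adjusted p = 0.0854). After withdrawal the sites differed by 0.03, with 0.24 in mouse 10 and −1.57 in mouse 19. The second KLF5 probe set went the other way in the primary tumors (4.25 and 4.97 with E, 3.79 and 4.23 after withdrawal, a difference of 0.62, adjusted p = 0.715).

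SPDEF, an ETS factor of secretory luminal cells, was read by 18 probe sets that did not agree. The probe set with the highest mean had 8.53, 9.50 and 7.13 in E lymph nodes, 8.36, 9.04 and 8.96 in EWD lymph nodes, 7.06 and 7.75 in E primary tumors and 7.63 and 7.66 in EWD primary tumors. Its pellet differences were −0.40 in lymph nodes (adjusted p = 0.951) and −0.25 in primary tumors (adjusted p = 0.85), and the latter became 0.78 after quantile normalization. Its site difference after withdrawal was 1.13 ± 0.60 (adjusted p = 0.597), with 1.41 in mouse 10 and 1.29 in mouse 19.

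Other SPDEF probe sets showed a larger spread between sites. Probe set 7 in order of mean level, chosen for display after its values were seen, had 7.07, 8.27 and 5.84 in E lymph nodes, 8.42, 8.82 and 8.43 in EWD lymph nodes, 3.26 and 3.50 in E primary tumors and 6.30 and 6.40 in EWD primary tumors. Its E primary tumors were the lowest arrays and its EWD lymph nodes the highest. The signal of this probe set fell by 2.97 ± 0.61 with estrogen in primary tumors (adjusted p = 0.0404), the only 1 of the 18 called there, where 2.75% of all probe sets were called lower. It was 3.68 ± 0.57 higher in E lymph nodes than in E primary tumors (adjusted p = 0.0129), where 4 of the 18 and 3.49% of all probe sets were called higher. After quantile normalization its differences were −2.86 (adjusted p = 0.102) and 3.55 (adjusted p = 0.0727). Limma then called 0 of the 18 in both comparisons, beside 0.215% of all probe sets called lower in the first and 0.0674% called higher in the second. At an unadjusted p under 0.05 there were 5 of the 18 in each, beside 17.6% of all probe sets in the first and 11% in the second. The primary tumor difference was then positive on 10 of the 18. Averaged over pellet states, the lymph node was called higher on 8 of the 18 probe sets as deposited, where 3.46% of all probe sets were called higher, and on 0 of 18 after quantile normalization (0.0914%). At an unadjusted p under 0.05, 6 of the 18 then passed in this limma fit, beside 13% of all probe sets. All 18 had a higher mean in EWD lymph nodes than in EWD primary tumors, by 0.18 to 2.52 as deposited and 0.07 to 2.31 after quantile normalization. On 13 of the 18 those groups did not overlap in either form, where 28.4% of all probe sets did not overlap as deposited and 28.6% after normalization, but 0 were past the limma threshold (0% of all probe sets). At an unadjusted p under 0.05 there were 11 of the 18 as deposited, beside 8.97% of all probe sets. The 18 are annotated to 1 gene. The probe set with the highest mean has no letter suffix, while most names, those of probe sets 7 and 10 among them, carry the suffix s or x. The manufacturer gives these to probe sets whose probes are not all unique to 1 transcript. The 18 are thus not independent readings, and some may not read SPDEF alone.

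**Figure D2:**
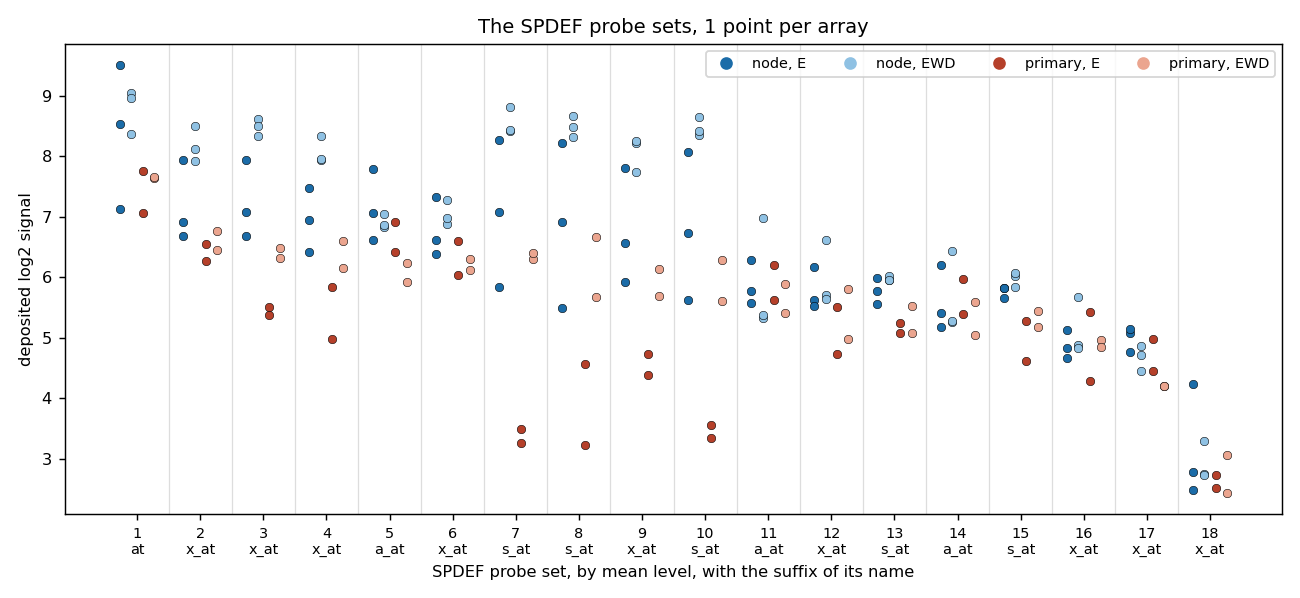
Deposited log2 signal of the 18 SPDEF probe sets, in order of their mean level, with 1 point per array colored by group and the last letters of each name under its number. Probe sets 7 and 10 show the 2 E primary tumors at 3.26 to 3.55, well below the other arrays, while the probe set with the highest mean does not.

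EHF, the remaining ETS factor, showed no difference past the threshold. It measured 4.95, 6.90 and 5.54 in E lymph nodes, 6.77, 6.36 and 4.29 in EWD lymph nodes, 4.78 and 5.68 in E primary tumors and 5.34 and 4.08 in EWD primary tumors. All 4 groups overlapped with a neighbour, and the pellet differences were −0.01 ± 0.74 in lymph nodes and 0.56 ± 0.91 in primary tumors. The 2 probe sets of EHF below the filter stayed between 1.94 and 2.52 on all arrays.

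Across the 8 factors, 2 (GATA3 and TFAP2A) were called lower with estrogen in the primary tumors as deposited, where 6.94% of all genes tested were called lower. After quantile normalization 0 of the 8 were called by limma, where 0.606% of all genes were called lower, and 4 had an unadjusted p under 0.05 where 21.4% of all genes did. The median difference of the 8 was −2.55 as deposited and −1.23 after quantile normalization, against −0.10 and 0.06 over all genes tested. The shares called differed with signal level, whose part in the values of the 8 was not tested. Genes of mean log2 signal above 10, as GATA3 and TFAP2C are, differed by a median of −1.90 and 58.3% of them were called in either direction as deposited. Genes at 6 to 8, where TFAP2A lies at a mean of 7.75, differed by a median of −0.77 and 8.01% were called. E and EWD primary tumors did not overlap for 5 of the 8, where 60.9% of all genes did not overlap in 2 against 2 arrays. The count of factors called is given under other settings beside the share of all genes called in either direction, which was 7.82% over all arrays. With the hybridization controls as a covariate it was 6 (34.9% of all genes), though the primary tumors cannot separate these controls from pellet state. The count was 5 with the 4 primary tumor arrays fitted alone (21.5%) and 5 without E lymph node 11 (20.8%). It was 4 without E lymph node 14 (11.3%) or EWD lymph node 19 (8.85%), and 3 without EWD lymph node 9 (5.62%). It was 1 without EWD lymph node 10 (3.03%), E primary tumor 14 (3.01%) or EWD primary tumor 10 (1%), and 0 without E primary tumor 11 (0.14%) or EWD primary tumor 19 (0.0291%). The mean of the tumor epithelial markers was also lowest in the E primary tumors. Of the 7, 6 had negative differences there as deposited and 1 positive (median −2.92). After quantile normalization 4 were negative and 3 positive (median −1.40). All 5 basal or myoepithelial markers had positive differences as deposited and 4 of them after quantile normalization. Their deposited median was 0.65, with 0 called by limma and 1 at an unadjusted p under 0.05, beside 26% of all genes. The part of either marker list in the differences of the 8 factors was not tested.

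In the lymph nodes 0 of the 8 factors were called, as were 0% of all genes tested by limma. At an unadjusted p under 0.05 there were 3 (GATA3, FOXA1 and ELF3), where 5.84% of all genes were. The lymph node differences were negative for 7 of the 8, with a median of −0.60 against −0.02 over all genes. Only GATA3 and ELF3 had groups that did not overlap among the 8, and 9.93% of all genes did. These calls and counts of calls held without the 2 E primary tumor arrays in the fit.

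**Figure D3:**
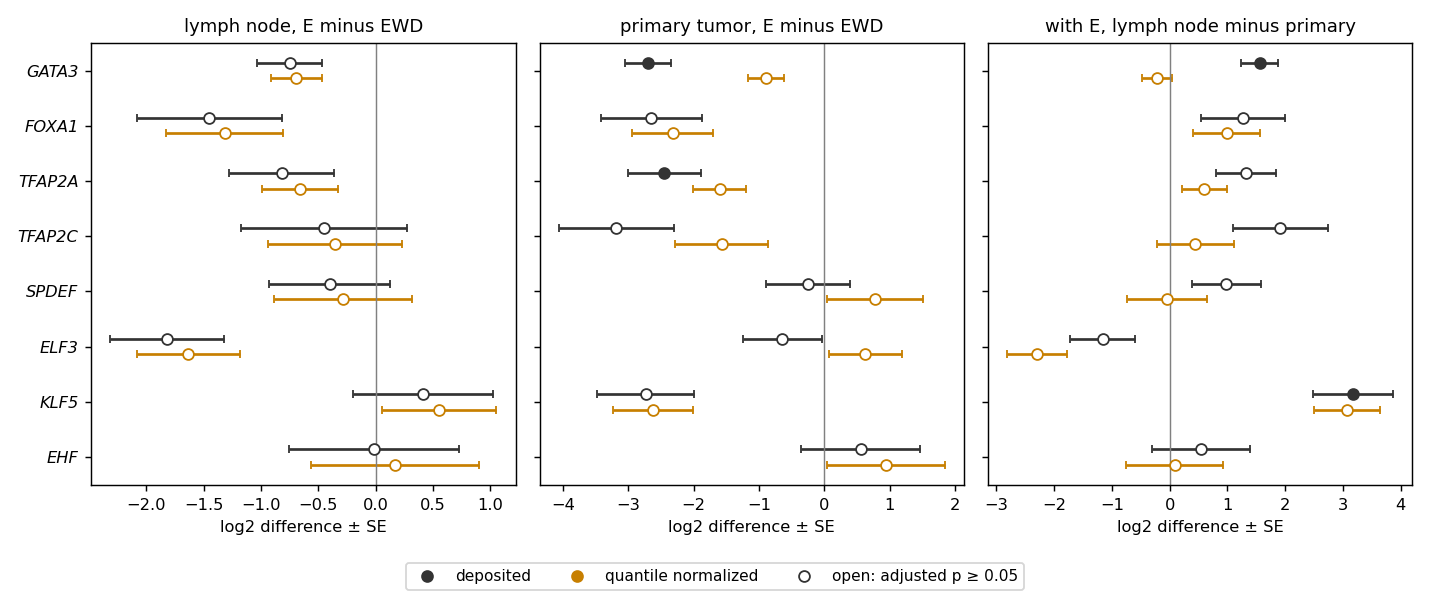
Log2 differences ± SE of the 8 factors from the limma fit, for estrogen minus withdrawal in lymph nodes (left) and primary tumors (middle) and for lymph node minus primary tumor with estrogen (right), as deposited and after quantile normalization. Filled points passed an adjusted p of 0.05: GATA3 and TFAP2A in the middle panel and GATA3 and KLF5 in the right one, all as deposited.

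Averaged over both sites, GATA3, FOXA1 and TFAP2A were called lower with estrogen on both scales. As deposited they fell by 1.72 ± 0.22 (adjusted p = 0.00961), 2.05 ± 0.49 (adjusted p = 0.0423) and 1.63 ± 0.36 (adjusted p = 0.0337). After quantile normalization they fell by 0.79 ± 0.17 (adjusted p = 0.0451), 1.82 ± 0.39 (adjusted p = 0.0442) and 1.13 ± 0.26 (adjusted p = 0.0498). These 3 of 8 stand beside 7.04% of all genes called lower as deposited and 2.1% after quantile normalization. Of genes of mean log2 signal above 10, as GATA3 is, 44% were called in either direction as deposited and 4.19% after normalization. At 6 to 8, where TFAP2A lies, these shares were 10.8% and 6.72%. FOXA1 lies there as deposited, and at 4 to 6 after normalization, where 5.13% were called. The part of signal level in these calls was not tested. TFAP2C (−1.82, adjusted p = 0.0808), ELF3 (−1.23, adjusted p = 0.0827), KLF5 (−1.16, adjusted p = 0.155), SPDEF (−0.33) and EHF (0.27) were not called as deposited. The refits that follow, without an array or under another setting, were made on the deposited values. Calls after quantile normalization were not refitted in this way. The GATA3 call was lost without E primary tumor 11 (adjusted p = 0.0654) and kept without each other array. The FOXA1 call was lost without any 1 of 7 arrays (adjusted p = 0.0600 to 0.212) and kept without E lymph nodes 11 or 14 or EWD lymph node 19. The TFAP2A call was lost without EWD lymph nodes 9 or 10 or any primary tumor (adjusted p = 0.0652 to 0.166). FOXA1 and TFAP2A were no longer called when probe sets were averaged (adjusted p = 0.0613 and 0.186), nor FOXA1 without the filter (adjusted p = 0.0505). The count of 3 became 5 without E lymph node 14 (15.8% of all genes called in either direction, against 8.01% over all arrays) or EWD lymph node 19 (10.8%).

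The pellet difference itself was compared between the sites, as the lymph node response minus that of the primary tumor. It was called for 0 of the 8 factors, where 0.0116% of all genes were called by limma, and 3 had an unadjusted p under 0.05 where 10.8% of all genes did. The most positive value was that of KLF5, at 3.15 as deposited (adjusted p = 0.262) and 3.17 after quantile normalization (adjusted p = 0.553). TFAP2C had 2.73 (adjusted p = 0.438), and GATA3 had 1.95 as deposited (adjusted p = 0.166) and 0.20 after quantile normalization (adjusted p = 0.934). Without E lymph node 11 the GATA3 value was 2.14 (adjusted p = 0.0227) and the TFAP2C value 3.52 (adjusted p = 0.0341), both called as deposited, where 8.99% of all genes were called. With the hybridization controls as a covariate 5 of the 8 were called, beside 23.6% of all genes. That fit cannot separate the controls from the pellet state in the primary tumors.

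With estrogen, 2 factors (GATA3 and KLF5) were called higher in lymph nodes than in primary tumors, where 7.81% of all genes were called higher as deposited. Genes of mean log2 signal above 10, as GATA3 is, differed by a median of 1.88 there, and 68.2% were called in either direction. Genes at 4 to 6, where KLF5 lies at a mean of 5.76, differed by a median of 0.37 and 2.98% were called. The part of signal level in these calls was not tested. After quantile normalization 0 of the 8 were called by limma and 0.507% of all genes were, in either direction, and 2 had an unadjusted p under 0.05 where 12.2% of all genes did. As deposited the count was 4 without E lymph node 11 (22.4% of all genes called in either direction, against 8.76% over all arrays) and 3 without E lymph node 14 (9.12%). It was 1 without EWD lymph node 10 (5.13%), E primary tumor 14 (4.85%) or either EWD primary tumor (6.13% each), and 0 without E lymph node 6 (2.29%) or E primary tumor 11 (1.04%). ELF3 alone was lower in E lymph nodes than in E primary tumors as deposited, with a difference of −1.16 (adjusted p = 0.261), which was −2.29 after normalization (adjusted p = 0.112). Its values then did not overlap between the 2 groups, on this 1 of its 3 probe sets only. Of all genes 27.9% did not overlap there after normalization. As deposited the 2 other ELF3 probe sets had positive differences, of up to 0.20. After normalization all 3 were negative, from −2.29 to −0.05. After withdrawal 0 factors were called between sites, as were 0% of all genes, and 0 of the 8 had an unadjusted p under 0.05 where 10% of all genes did. The differences with the greatest size after withdrawal were 1.13 for SPDEF, 1.12 for EHF and −0.81 for TFAP2C. Averaged over pellet states 0 of the 8 were called between the sites by limma (8.15% of all genes), and 3 had an unadjusted p under 0.05 (23.4% of all genes), with 1.60 for KLF5 (adjusted p = 0.0814) and 1.06 for SPDEF (adjusted p = 0.174). Without EWD lymph node 19 KLF5 was called (1.98, adjusted p = 0.0164, 8.7% of all genes called), and without E lymph node 14 SPDEF was (1.38, adjusted p = 0.0187, 11% of all genes called). The comparisons within the E arrays and within the primary tumors share the 2 E primary tumor arrays.

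**Figure D4:**
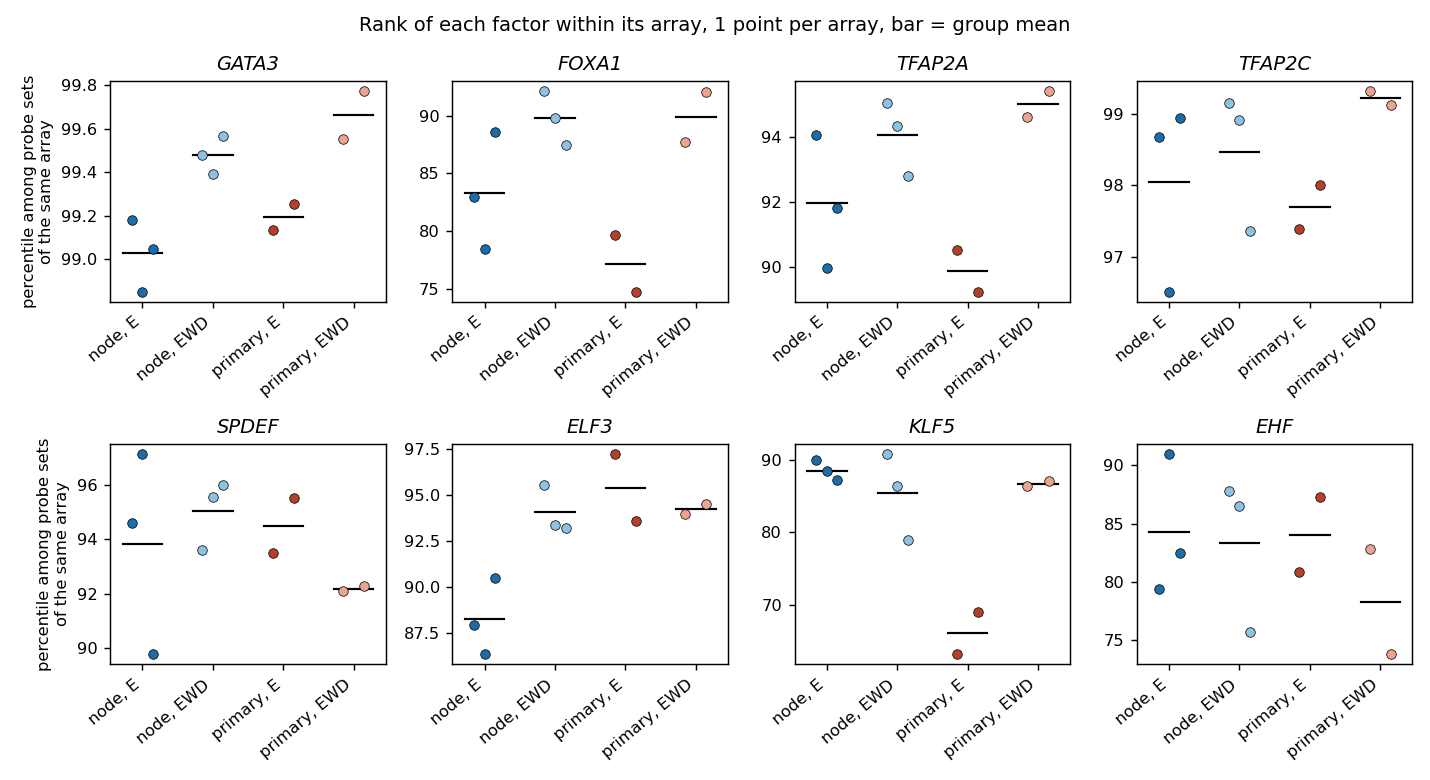
Percentile of each factor among all probe sets of its own array, with 1 point per array, a bar at each group mean and a separate vertical axis per panel. KLF5 lies at 63.2 and 69.1 in the E primary tumors and at 79.0 or above elsewhere, while GATA3 stays at 98.9 or above on all 10 arrays.

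A rank within the array does not depend on the range of the array's values. GATA3 ranked between percentiles 98.9 and 99.8 of all probe sets on the 10 arrays, with 98.9 to 99.3 on the E arrays and 99.4 to 99.8 on the EWD arrays. TFAP2C ranked between 96.5 and 99.3, and SPDEF between 89.8 and 97.2. KLF5 ranked at 63.2 and 69.1 in the E primary tumors and between 79.0 and 90.8 elsewhere. FOXA1 ranked at 79.6 and 74.8 in E primary tumors and 87.7 and 92.1 in EWD primary tumors. ELF3 ranked between 86.3 and 90.5 in E lymph nodes and between 93.2 and 97.3 on the other arrays.

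The patterns of the factors over the 10 arrays were set side by side after quantile normalization and centring, as a description. Likeness is given as the root mean square difference in log2 units, small values being alike. The closest pairs were GATA3 with TFAP2A at 0.45, TFAP2A with TFAP2C at 0.51 and FOXA1 with TFAP2A at 0.62. ELF3 and KLF5 were the least alike of the 28 pairs, at 1.97. Among all genes tested the nearest to GATA3 were SLC37A1 (0.07) and ZNF285 (0.14), and to FOXA1 SNTB2 (0.21) and FA2H (0.27). For TFAP2A they were ITSN2 and EIF2AK3 (0.20 each), for TFAP2C HNRNPH3 (0.12) and UFM1 (0.18), and for SPDEF CSRP1 (0.18) and LEMD2 (0.28). ELF3 (GALNT1 at 0.51, DCUN1D4 at 0.54), KLF5 (MITD1 at 0.53, LOC389831 at 0.58) and EHF (SYDE1 at 0.45, ZBTB45 at 0.50) had no gene as near. These points share arrays, and a gene that varies little over the arrays is nearer to others by that alone, with an SD over the arrays of 0.48 for GATA3 and 1.32 for KLF5.

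Other transcription factors of luminal cells had negative pellet differences in the primary tumors for 15 of 18 tested. Of these 3 fell with estrogen in the primary tumors and 0 rose, where 6.94% of all genes were called lower and 0.879% higher. They were XBP1, a factor of secretory cells (−2.21, adjusted p = 0.0116), RUNX1, a partner of CBFB (−1.88, adjusted p = 0.0195), and HES1, a Notch target (−3.07, adjusted p = 0.0259). XBP1 is among the genes of mean log2 signal above 10, of which 58.3% were called there in either direction. RUNX1 is among those at 8 to 10 (20.6% called) and HES1 among those at 6 to 8 (8.01% called). The median of the 18 was −1.77 as deposited and −0.88 after quantile normalization. Limma then called 0 of the 18, where 0.606% of all genes were called lower and 0.775% higher. At an unadjusted p under 0.05 there were 9, beside 21.4% of all genes. Averaged over both sites 8 of the 18 fell as deposited (7.04% of all genes), among them CREB3L4 (−1.98) and GRHL2 (−1.10), a factor of epithelial junctions. With HES1 (−1.61), these were called after quantile normalization too (CREB3L4 −1.94, GRHL2 −0.82), where 2.1% of all genes were called lower. In lymph nodes limma called 0 of the 18 (5 at an unadjusted p under 0.05, beside 5.84% of all genes). CREB3L4 (−2.07, adjusted p = 0.331) and OVOL2 (−1.29, adjusted p = 0.592) had the greatest t values there.

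Of 17 partners, cofactors and turnover factors tested, 2 fell with estrogen in the primary tumors as deposited and 0 rose, beside the same shares of all genes. These were WWP1, a ubiquitin ligase that targets KLF5 (−1.75, adjusted p = 0.0371), and KMT2C, an enhancer histone methyltransferase (−3.48, adjusted p = 0.041). Of genes of mean log2 signal at 8 to 10, as WWP1 is, 20.6% were called there in either direction. At 6 to 8, as KMT2C is, 8.01% were. The part of signal level in these calls was not tested. WWP1 was also called in the average over sites on both scales (−1.64 as deposited and −1.02 after quantile normalization). Its lymph node difference was −1.54 and not past the threshold (adjusted p = 0.301). The median of the 17 in the primary tumors was −0.15, beside −0.10 over all genes.

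Of 29 products of luminal differentiation tested, 1 rose and 6 fell with estrogen in the primary tumors, where 0.879% of all genes were called higher and 6.94% lower. Among genes of mean log2 signal above 10, as CDH1, CD24 and SPINT2 are, 97.8% had negative differences there and 58.3% were called in either direction. At 8 to 10, as MUC1 is, 20.6% were called. The part of signal level in these calls was not tested. The median of the 29 was −1.02 and became 0.03 after quantile normalization. The cell surface mucin MUC1 (−2.92), the adhesion protein CDH1 (−3.13), the surface protein CD24 (−3.28) and the protease inhibitor SPINT2 (−2.80) had the greatest t values among those called (adjusted p = 0.00603 to 0.011). MUC1 (−1.73, adjusted p = 0.0427) and CD24 (−1.51, adjusted p = 0.0489) were called after quantile normalization as well, where 0.606% of all genes were called lower and 0.775% higher. In lymph nodes limma called 0 of the 29 (7 at an unadjusted p under 0.05, beside 5.84% of all genes). MUC1 was at −2.29 (adjusted p = 0.0875) and TFF3, a secreted trefoil peptide, at −3.38 (adjusted p = 0.239) there. Between the E sites 10 of the 29 were called higher in lymph nodes and 1 lower as deposited, where 7.81% of all genes were called higher and 0.949% lower. Of genes of mean log2 signal above 10, 68.2% were called there in either direction. After quantile normalization limma called 0 of the 29 (6 at an unadjusted p under 0.05, beside 12.2% of all genes).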

How the data were processed

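Laser-captured human breast cancer cells from mice were measured on 10 human expression arrays. The authors' deposited values are log2 signals, 1 per probe set and array. Partek software and RMA (background correction, normalization and probe summary) made them, per the submitters' processing notes, and versions are not given in the sources used here. PCR amplification of RNA from captured cells can add noise and favor 3′ ends. Arrays give no counts, and their number limits the precision.

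Gene names came from GEO's annotation of the array (44532 probe sets with 1 symbol, 1492 with several, 15273 unnamed here, 62 controls). Each of 19556 genes was represented by its probe set of highest mean, and 17169 reached the 25th percentile of probe set means (2.31). Group means were fitted with limma 3.58.1 in R 4.3.3 (lmFit, eBayes) over all 10 arrays, with mouse as a random block (consensus correlation −0.04) and 7 comparisons. Adjusted p-values are Benjamini-Hochberg over all genes tested (over all 45974 probe sets tested for single probe sets), and called means an adjusted p below 0.05. The labels' mouse numbers pair the sites of an animal; the deviations of paired arrays correlated at 0.176, −0.208, −0.21 and 0.0831 in mice 10, 11, 14 and 19. The fits were tested on simulated data.

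Members and lists were chosen with earlier results of these data known. Named list genes are those called in a comparison, at most 4 by greatest t, or the 2 of greatest t where none was called; genes like a member are the 2 nearest. Alternatives covered normalization, centring, filters, the choice of probe set, the block, variance trend, control covariate, arrays fitted and leaving out each array. Each was changed alone from the fit of the deposited values. Sequences and positions of the human genes were not used here.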

Additional observations from a re-analysis of the deposited data

How the results depend on the processing

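The labels' numbers mark mice, and without the replicate block the numbers of factors called were 0 in lymph nodes, 2 in primary tumors and 3 in the average pellet comparison, and no call of a factor changed. The other numbers called moved as follows. In primary tumors (2) it was 0 after quantile normalization, 4 with a stricter filter, 1 with probe sets averaged, 3 with the probe set of greatest variance, 4 with a trend in the prior variance, 6 with the hybridization controls as covariate and 5 with the compared groups only, and 0 to 5 leaving out 1 array. Between E sites (2) it was 0 after quantile normalization, 1 with probe sets averaged, 5 with the covariate and 0 with the compared groups only, and 0 to 4 leaving out 1 array. In the average pellet comparison (3) it was 2 without the filter or with probe sets averaged, 5 with the probe set of greatest variance, 6 with the covariate, and 0 to 5 leaving out 1 array. The average site comparison (0) had 2 with probe sets averaged, 1 with greatest variance, 3 with the covariate and 0 to 1 leaving out 1 array. The difference of responses (0) had 5 with the covariate and 0 to 2 leaving out 1 array, and the EWD sites (0) had 2 with the covariate. All 0 calls in lymph nodes and between EWD sites remained at 0 leaving out 1 array. The causes were not tested, and the covariate cannot be separated from the pellet state in the primary tumors.

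Signs turned in the following cases, of which GATA3 between E sites had been called (1.56). With quantile normalization these were EHF in lymph nodes (0.17), SPDEF (0.78) and ELF3 (0.63) in primary tumors, GATA3 (−0.22) and SPDEF (−0.0463) between E sites, FOXA1 (−0.0165), ELF3 (−0.0272) and KLF5 (−0.11) between EWD sites, SPDEF in the average pellet comparison (0.25), and GATA3 (−0.32) and TFAP2C (−0.17) in the average site comparison. With medians centred they were ELF3 (−0.0107) and KLF5 (−0.000851) between EWD sites. With probe sets averaged they were EHF in lymph nodes (0.18), the SPDEF (0.0194) and ELF3 (0.0712) difference of responses, and FOXA1 (−0.23), TFAP2A (0.10) and ELF3 (−0.33) between EWD sites. With greatest variance they were the SPDEF (1.48) and ELF3 (1.06) difference of responses, and ELF3 between E sites (0.17) and EWD sites (−0.89). With the covariate they were EHF in lymph nodes (0.00268), SPDEF in primary tumors (0.93) and in the average pellet comparison (0.23), the ELF3 difference of responses (0.25), and FOXA1 (−1.25), ELF3 (−1.01) and KLF5 (−0.999) between EWD sites. With the compared groups only they were ELF3 (−0.0452) and KLF5 (−0.0783) between EWD sites, and without the E primary tumor pair, an alternative added after seeing the data, FOXA1 (−0.000688), ELF3 (−0.053) and KLF5 (−0.092) there.

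Leaving out 1 array also turned signs. The ranges were, in lymph nodes, EHF −0.80 to 0.47, KLF5 −0.32 to 1.08, SPDEF −0.96 to 0.23 and TFAP2C −1.07 to 0.32. In primary tumors they were EHF −0.15 to 1.44, ELF3 −1.42 to 0.00353 and SPDEF −0.71 to 0.31. In the difference of responses they were EHF −1.45 to 0.14 and SPDEF −0.73 to 0.47, and for EHF in the average pellet comparison −0.11 to 0.72. Between EWD sites they were ELF3 −0.38 to 0.31, FOXA1 −0.41 to 0.64, KLF5 −0.67 to 0.77 and TFAP2A −0.59 to 0.0456. Groups of 2 and 3 arrays limit the precision of every value. When 1 primary tumor is left out, its group has 1 array, assumed to vary like the others.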

Other observations

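Of 20 close relatives of the 8 factors that were tested, 1 rose with estrogen in the primary tumors and 0 fell as deposited. Of all genes, 0.879% were called higher and 6.94% lower there. The median of the 20 was −0.20. The 1 that rose was FOXA2, a forkhead factor of liver and gut, with a group mean of 3.62 ± 0.22 (SD, n = 2) in E and 2.59 ± 0.09 (SD, n = 2) in EWD primary tumors (limma difference 1.03, adjusted p = 0.0356). Its signal was low, at 2.52 to 3.78 over the arrays, whose medians were 2.70 to 2.83. Averaged over sites FOXA2 was called higher and TFAP2B, another AP-2 factor, lower with estrogen on both scales, by 0.68 and −1.61 as deposited and 0.71 and −1.51 after quantile normalization. Of all genes 0.979% were called higher and 7.04% lower there as deposited, and 1.63% and 2.1% after normalization. TFAP2B had its highest group mean in EWD lymph nodes, at 5.42 ± 0.91 (SD, n = 3), against 2.98 ± 0.37 (SD, n = 3) in E lymph nodes, with a lymph node difference not past the threshold (adjusted p = 0.239). GATA2, a relative of GATA3, was lower in E lymph nodes than in E primary tumors, with a difference of −2.99 as deposited (adjusted p = 0.0404). It stood at 7.29 ± 0.78 (SD, n = 3) and 10.27 ± 0.70 (SD, n = 2) there, and the difference was −4.55 after quantile normalization (adjusted p = 0.0588).

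Transcription factors of basal and mesenchymal cells were called by limma in none of the 4 comparisons between single groups among the 17 tested. As deposited 1 had an unadjusted p under 0.05 at each site in the pellet comparison. Of all genes 5.84% did in lymph nodes and 26% in primary tumors. The average pellet comparison had 1 called lower as deposited, the immediate early factor EGR1 (−2.13, adjusted p = 0.0431). After quantile normalization 0 were called (3 at an unadjusted p under 0.05, beside 24.7% of all genes). In the primary tumors 12 of the 17 had a positive difference, with a median of 0.18 as deposited and 0.13 after quantile normalization, and EGR1 (−2.53, adjusted p = 0.0911) and TWIST1 (−1.80, adjusted p = 0.202) had the greatest t values.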
